A study of Mus musculus with 7 samples.

Results

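EED peaks called in spermatocytes at postnatal day 17 (P17) were set against H3K27me3 peaks called 5 days earlier, at P12. The members were every peak of the EED list and every peak of the P12 H3K27me3 list, 2701 and 13028 peaks, of 137861 peaks in the 5 lists of the series. An EED peak was counted as lying on H3K27me3 when the peaks shared at least 1 bp. All groups were wild-type (WT) CD1 mice with no treatment named, and the cells of each stage came from digested testes passed through Percoll and fixed with formaldehyde before immunoprecipitation. The P12 H3K27me3 and P17 EED lists each came from 1 replicate. The P17 H3K27me3 and H3K4me3 lists, used below for comparison, each pooled 2 replicates. The P17 H3K4me3 sample was taken as such from its title; its entry for the antibody lists the H3K27me3 one. The number of animals is not given in the labels, and peak lists hold no marker expression with which to check the cell type, so other testis cells in the fraction cannot be told apart from spermatocytes.

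EED is a core subunit of Polycomb repressive complex 2 (PRC2), the enzyme complex that methylates histone H3 at lysine 27. EED binds the trimethylated mark itself, and this binding stimulates the enzyme, so existing H3K27me3 can help to recruit and activate the complex that deposits it. In many tissues PRC2 sits at CpG-rich promoters of developmental regulators, where the mark spreads into broad domains and H3K4me3, a mark of promoters, is often found as well. H3K4me3 at such promoters together with H3K27me3 is known from embryonic stem cells and germ cells.

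Most EED peaks at P17 lay where H3K27me3 had been called at P12. Of 2701 EED peaks, 2126 lay on a P12 H3K27me3 peak, 78.7% (Wilson 95% interval 77.1% to 80.2%). The 1971 EED peaks that lay wholly inside 1 such peak made up 73.0% of the list, and 155 crossed an edge. Counted by bases, 90.4% of the sequence under EED peaks was under P12 H3K27me3. The share by peaks depends on how clustered EED calls are counted. Another EED peak lay within 1 kb of 83.6% of EED peaks on the mark and 13.2% of those off it. With EED peaks merged within 1 kb, 61.8% lay on P12 H3K27me3 (59.2% to 64.4%). The P12 list covered 21.6 Mb, or 0.838% of the 2575 Mb between the outermost peaks of each chromosome over all 5 lists. There is 1 list per mark and stage, so no test was made between samples, and the intervals cover counting error only and treat peaks as independent.

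The earlier list held nearly as many EED peaks as the H3K27me3 list of the same stage. P17 H3K27me3 peaks held 2223 EED peaks, 82.3% (80.8% to 83.7%), but covered 86.4 Mb. Per Mb of called H3K27me3 there were 98.5 EED peaks in the P12 list and 25.7 in the P17 list. H3K4me3 peaks held 70.2% of EED peaks at P12 and 75.7% at P17, with 25.4 and 19.2 EED peaks per Mb. The P17 list was called on 2 pooled replicates and the P12 list on 1, and the part of this in the densities was not tested.

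Whether an EED peak lay on earlier H3K27me3 went with the width of the EED peak. Among the narrowest of 5 equal-count classes, 78 to 188 bp wide, 35.1% lay on P12 H3K27me3 (31.2% to 39.2%). The share was 72.6% at 189 to 251 bp, 90.4% at 252 to 365 bp and 96.5% at 366 to 650 bp. It reached 99.4% (98.4% to 99.8%) among EED peaks of 651 to 10290 bp. Intervals of neighbouring classes did not overlap. Of 319 EED peaks of at least 1 kb, 317 lay on P12 H3K27me3. EED peaks on the mark had a median width of 364 bp (middle range, 25th to 75th percentile, 243 to 656 bp), and those off it 179 bp (159 to 214 bp).

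**Figure D1:**
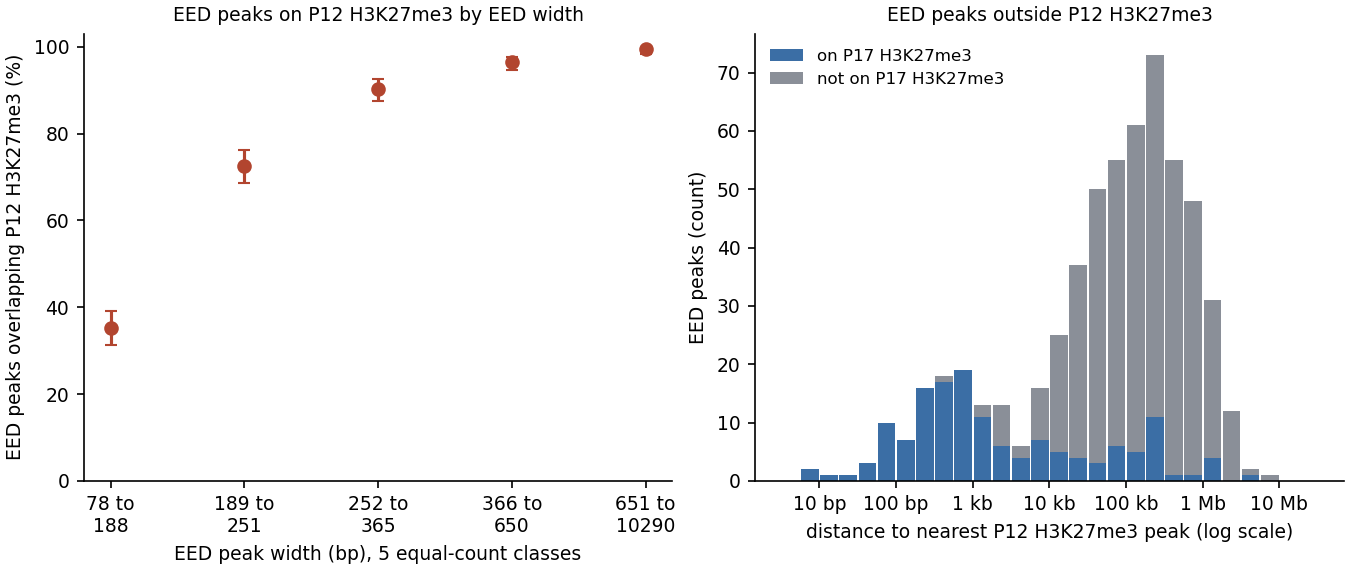
Left, the share of EED peaks overlapping a P12 H3K27me3 peak (%) in 5 equal-count classes of EED peak width (bp), with Wilson 95% intervals, rising from 35.1% to 99.4%. Right, the number of EED peaks outside P12 H3K27me3 by distance to the nearest P12 H3K27me3 peak (log scale, bars stacked by overlap with P17 H3K27me3), with one group of distances around 1 kb and a larger one around 100 kb.

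The 575 EED peaks outside P12 H3K27me3 fell at 2 scales of distance. Their median distance to the nearest P12 H3K27me3 peak was 92988 bp (order-statistic 95% interval 75063 to 124427 bp), and the range ran from 6 bp to 9456380 bp. This median rests on the narrow EED peaks and the overlap rule. Among outside EED peaks of at least 300 bp it was 1241 bp (519 to 7523 bp), and 74.4% lay within 10 kb (58.9% to 85.4%). These are a small set, since 97.1% of EED peaks of that width lay on the mark. The median was 39932 bp when an EED peak had to lie wholly inside the mark to count as on it. Merging EED peaks within 1 kb gave 131620 bp, with 12.6% within 10 kb. Within 1 kb there were 77 of them (13.4%), within 10 kb 125 (21.7%) and within 100 kb 292 (50.8%). Between 1 and 10 kb the count rose from 77 to 125, and the histogram of distances has a shallow dip there. Of the 77 within 1 kb, 76 lay on a P17 H3K27me3 peak, whereas 23 of the 283 more than 100 kb away did (8.13%). Gaps between P12 H3K27me3 peaks at most 10 kb apart held 49 of the 575.

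The 145 EED peaks that were off the mark at P12 and on it at P17 lay mostly close to P12 peaks. Their median distance to a P12 H3K27me3 peak was 920 bp (599 to 1499 bp), their median width was 227 bp, and 76.6% of them overlapped P17 H3K4me3. A further EED peak lay within 10 kb of 56.6% of them. The 430 EED peaks off H3K27me3 at both stages lay a median of 154654 bp from P12 H3K27me3 (134298 to 201053 bp). They were narrow, with a median width of 173 bp and a maximum of 412 bp. Of these, 38 (8.84%) overlapped P17 H3K4me3, and 6 had another EED peak within 10 kb. Among the 2078 EED peaks on H3K27me3 at both stages, the median width was 360 bp, 89.5% overlapped P17 H3K4me3 and 92.3% had another EED peak within 10 kb. No score came with the EED list, so narrow isolated calls could not be ranked by strength.

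Single EED peaks show how close to the boundary of the older mark some calls were. The nearest outside, on chromosome 16 at 14706337 to 14706520 (mm9), was 6 bp from a P12 H3K27me3 peak. The next was 9 bp away, on chromosome 13 at 115250323 to 115250505. On the other side of the boundary, the smallest overlap was 5 bp, for the EED peak on chromosome 6 at 51128929 to 51129504. A little farther along, at 51129652 to 51130734, lay one of the 2 widest EED peaks outside the mark, 1083 bp wide and 301 bp from P12 H3K27me3. The widest, 1096 bp, lay on chromosome 9 at 89777092 to 89778187, also on P17 H3K27me3 and 394 bp from the P12 mark. The 5 widest EED peaks outside P12 H3K27me3 were all on P17 H3K27me3. Of the 5 farthest, 1 was, on chromosome 12 at 46175615 to 46175773, which also overlapped H3K4me3 at both stages. It lay 3962910 bp from any P12 H3K27me3 peak.

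Only a small part of the P12 H3K27me3 peaks carried EED at P17, and they were wider than the rest. Of 13028 peaks 796 carried EED, 6.11% (5.71% to 6.53%), and they made up 17.8% of the bases in the list. Their median width was 3626 bp (3430 to 3894 bp), against 1038 bp (1020 to 1055 bp) for the 12232 peaks without EED. Middle ranges were 2107 to 6480 bp and 697 to 1805 bp, so the groups overlapped only in part. Of the peaks with EED, 37.4% were at least 5 kb wide, against 1.81% of those without. Of the 89 P12 H3K27me3 peaks of at least 10 kb, 79 carried EED.

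**Figure D2:**
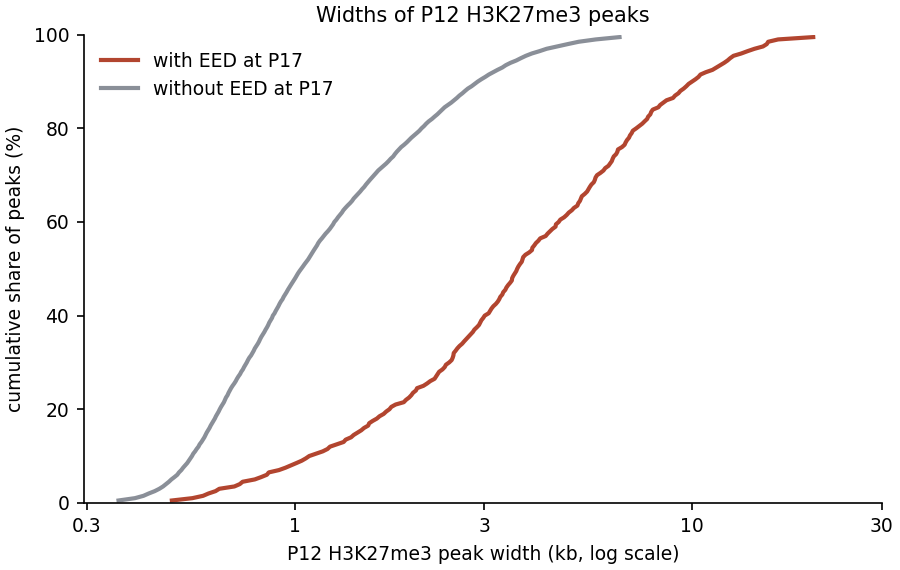
Cumulative share of P12 H3K27me3 peaks (%) by peak width (kb, log scale), for peaks with and without an EED peak at P17. The curve for peaks with EED lies to the right throughout, with medians of 3626 and 1038 bp.

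A wide peak has more room for an overlap. The share in 10 equal-count width classes shows how it rose with width, but does not take that room out. It was 0.688% (0.362% to 1.30%) in peaks of 187 to 556 bp, 1.84% at 912 to 1090 bp and 4.91% at 1732 to 2307 bp. It stood at 9.92% (8.41% to 11.7%) at 2308 to 3315 bp and 34.0% (31.5% to 36.6%) from 3316 bp upward. The background for these classes is the 6.11% of the whole list, which is not matched for width. The top class alone held 443 of the 796 peaks with EED. Within it, where widths ran up to 43007 bp, peaks with EED had a median of 6185 bp against 4127 bp. The same limit of room applies there. A P12 H3K27me3 peak without EED is one on which no EED peak was called; the depth of the EED library is not given in the files, so weaker EED could not be seen.

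Most of the carrying peaks held several EED peaks. Of 796, 469 had at least 2, 131 had at least 5 and 17 had at least 10. The 131 peaks with at least 5 accounted for 43.4% of all pairs of overlapping EED and P12 H3K27me3 peaks. EED covered a median of 28.6% of a carrying peak (26.8% to 31.6%), and 6.55% to 71.0% between the 10th and 90th percentiles. EED centres lay across the peak, but less often near its edges. On a scale from 0 at the edge to 1 at the centre their median position was 0.58. Below 0.1 lay 4.89%, where even placement would put 10%. For peaks with a single EED peak the median position was 0.60.

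The P12 H3K27me3 peak with the most EED lay on chromosome 6 at 52149265 to 52192271 and held 25 EED peaks over 69.9% of its 43007 bp. The next, on chromosome 5 at 140016828 to 140035817, held 20 EED peaks in 18990 bp. A further 4 held 15 each, on chromosome 8 at 12380748 to 12403659, chromosome 4 at 109645888 to 109660989, chromosome 12 at 57788554 to 57802284 and chromosome 11 at 21892604 to 21905858. All 6 overlapped H3K4me3 at both stages, as did nearly all peaks in their width class. From 3316 bp upward, P12 H3K4me3 lay on 99.8% of peaks with EED and 98.4% of those without. The widest P12 H3K27me3 peak without EED, on chromosome 8 at 123602416 to 123616469, was 14054 bp wide and also carried H3K4me3 at both stages. The other 4 of the widest 5 without EED spanned 11108 to 12899 bp, and all 5 lay on P17 H3K27me3. Among these the nearest EED peak was 2224 bp away for the peak on chromosome 13 at 31710553 to 31723451, and 3088526 bp away for the one on chromosome 8 at 74207079 to 74219024.

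P12 H3K27me3 peaks that carried EED stood in denser groups of peaks than those that did not. Another P12 H3K27me3 peak lay within 10 kb of 85.7% of the peaks with EED (83.1% to 87.9%) and of 63.7% of those without (62.9% to 64.6%). The median gap to the nearest other P12 H3K27me3 peak was 154 bp (128 to 193 bp) with EED and 2401 bp (2137 to 2655 bp) without. At such gaps, neighbouring peaks are separated by a short uncalled stretch. After joining pieces across gaps of at most 1 kb, the shares with a neighbour within 10 kb were 53.4% and 37.9%, and the median widths 6263 and 1389 bp.

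The difference in neighbours was also present within width classes of called peaks. A called peak can be a piece of a wider stretch broken by short gaps, so these classes do not match the width of such stretches. The joined peaks were not split by width. In all 10 width classes the share with a neighbour within 10 kb was higher, and the median gap smaller, for peaks with EED. At 2308 to 3315 bp, where the median widths were 2792 and 2695 bp, the shares were 82.9% (75.5% to 88.5%) and 56.2% (53.4% to 59.0%). In the widest class, where peaks with EED were the wider ones, they were 88.5% and 61.4%. In the narrowest class they were 88.9% and 63.2%, but the first of these rests on 9 peaks. Intervals of the groups with and without EED overlapped in the 6 classes up to 1341 bp and were apart in the 4 wider classes.

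**Figure D3:**
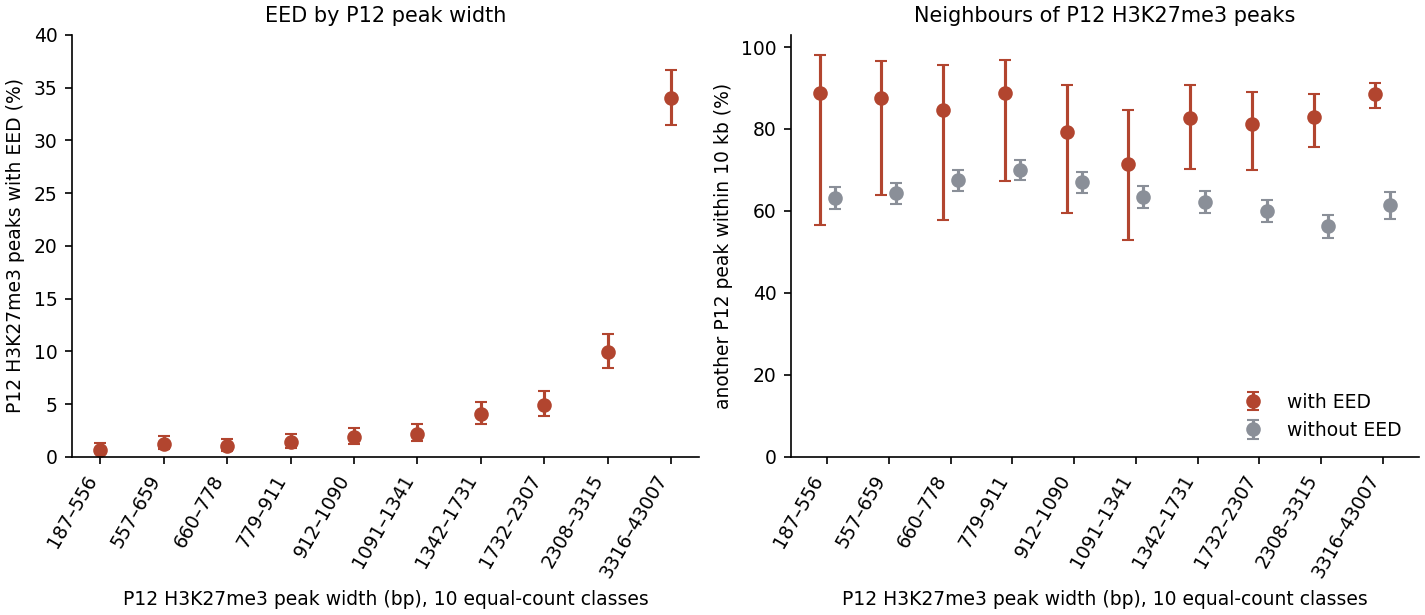
Left, the share of P12 H3K27me3 peaks with EED at P17 (%) in 10 equal-count classes of peak width (bp). Right, the share with another P12 H3K27me3 peak within 10 kb (%) in the same classes, for peaks with and without EED; bars are Wilson 95% intervals, and the share is higher with EED in all 10 classes.

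Peaks at most 10 kb apart were then grouped into 7256 chains, of which 477 (6.57%) had EED on a P12 H3K27me3 peak. Of 4553 chains made of a single peak, 2.50% carried EED. The share was 6.77% for pairs, 14.4% for chains of 3 to 4 peaks, 35.0% for 5 to 9 and 55.6% (43.3% to 67.2%) for 10 or more. Larger chains hold more marked sequence, but EED peaks per Mb of P12 H3K27me3 also went up, from 31.6 in single peaks to 62.7, 121, 171 and 277. These counts took in the whole chain, including 49 EED peaks in gaps, off P12 H3K27me3. Single peaks have no such gaps. The class of 10 or more peaks held 495 EED peaks. The 5 chains with the most EED, all in that class, held 34 to 51 each. The density per Mb was not recomputed without these chains or with clustered EED peaks merged. Where a neighbour lay within 10 kb, the nearest one also carried EED for 45.3% of peaks with EED (41.6% to 49.1%). For peaks without EED this was 5.68% (5.19% to 6.22%). An EED peak across a short gap counts for both neighbours: 2126 EED peaks made 2166 overlapping pairs with P12 H3K27me3 peaks. The median gap of carrying peaks was 154 bp, so pieces of the same domain can also count as neighbours. The part of these in the shares was not tested. Of the 12232 peaks without EED, 1084 (8.86%) belonged to a chain with EED on another peak.

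**Figure D4:**
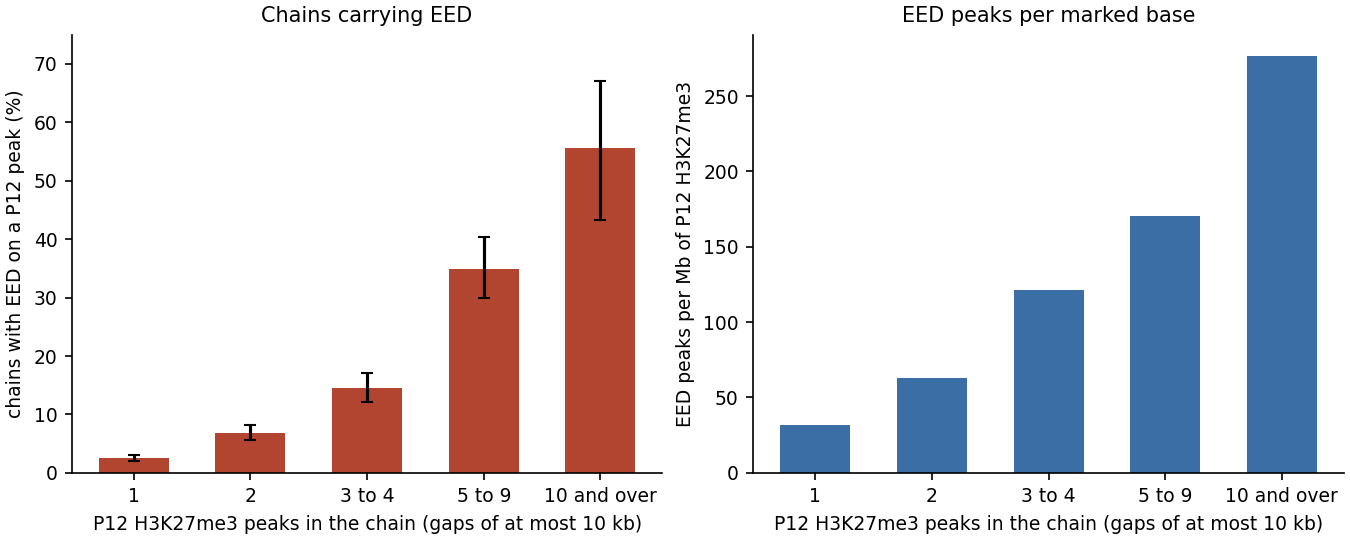
Left, the share of chains of P12 H3K27me3 peaks (gaps of at most 10 kb) that carry EED on a peak (%), by number of peaks in the chain, with Wilson 95% intervals. Right, EED peaks in the same chains, including those in gaps, per Mb of P12 H3K27me3. Both go up with chain size, from 2.50% to 55.6% and from 31.6 to 277 per Mb.

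Among the largest chains some carried EED on part of their peaks and others on none. In chains of at least 5 peaks with EED, 380 of 1169 P12 H3K27me3 peaks (32.5%) carried it. Of 63 chains with at least 10 P12 H3K27me3 peaks, 28 had no EED on them. The largest chain without EED, on chromosome 8 at 123459754 to 123557258, had 27 peaks with a median width of 862 bp. Of these 27, 2 overlapped H3K4me3 at P12. Next came chromosome 11 at 117246987 to 117345422 with 26 peaks and chromosome 4 at 41607433 to 41654384 with 19, where 1 EED peak lay in a gap between them. Over chains of at least 5 peaks, the 229 without EED were more sparsely marked than the 143 with it. P12 H3K27me3 filled a median of 43.9% of a chain without EED and 72.5% of a chain with EED, and the widest peak of the chain had a median width of 3069 and 7226 bp. H3K4me3 at P12 lay on 44.8% of all peaks in the chains without EED (42.4% to 47.3%). In the chains with EED it lay on 51.7% of all peaks, carrying or not (48.8% to 54.5%).

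The chains with the most EED included the 4 Hox clusters, the clustered homeobox genes that set position along the body axis. Their places in mm9 are given here as general background, since no mm9 annotation was used. The HoxB chain, on chromosome 11 at 96109661 to 96234374, held 51 EED peaks, with EED on 13 of its 30 P12 H3K27me3 peaks. The HoxA chain, on chromosome 6 at 52093493 to 52245158, held 49 EED peaks, with EED on 9 of 30. The HoxD chain, on chromosome 2 at 74485326 to 74602726, also held 49, with EED on 14 of 19. A chain on chromosome 18 at 37874244 to 37928220 followed with 37 EED peaks, 33 of them on P12 H3K27me3, and then the HoxC chain on chromosome 15 at 102735298 to 102873359, with 34 EED peaks and EED on 9 of 30. Without these 5 chains, 77.0% of the remaining EED peaks lay on P12 H3K27me3.

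The HoxA chain was the one large place where EED lay on P12 H3K27me3 but not on a P17 H3K27me3 peak. Of 48 such EED peaks in the genome, 47 lay in its stretch without any P17 peak, from 52097777 to 52230508, and the other lay on chromosome 17. P17 H3K27me3 peaks filled 7.06% of the HoxA chain, against 93.4% of the HoxB, 95.5% of the HoxD and 97.4% of the HoxC chain. The gene-body H3K27me3 reads did not show such a gap. The 11 Hoxa genes held 11331 reads at P12 and 28751 at P17, or 842 and 1078 CPM (read counts scaled to the file's total), and 10 of the 11 were higher at P17, against 38.4% of all 23530 entries of the files. Hoxa3, a gene of the anterior end of the cluster, held 366 and 444 CPM, Hoxa10 held 125 and 169 CPM, and Hoxa13, which patterns distal limb and genital structures, held 36.7 and 50.1 CPM. Hoxa4 alone was lower, at 15.4 and 10.8 CPM. In the other clusters the values were higher at P17 for 10 of 10 Hoxb, 9 of 9 Hoxc and 8 of 9 Hoxd genes, and the Hoxb genes summed to 515 and 716 CPM. The P12 values come from 1 replicate and the P17 values from 1 file that pools 2, so they have no replicate check, and the missing P17 peaks are not read as loss of the mark.

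**Figure D5:**
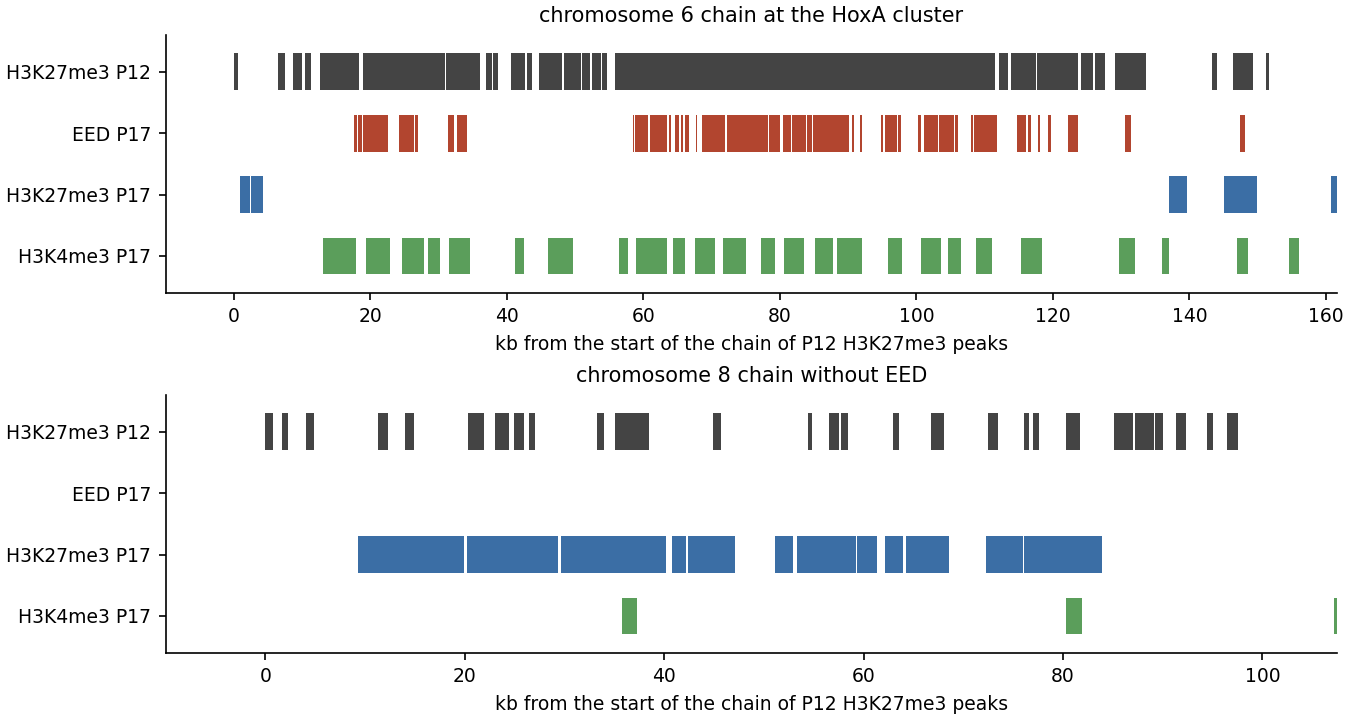
Called peaks along 2 chains of P12 H3K27me3 peaks, drawn to scale in kb from the start of the chain. The upper chain holds 49 EED peaks and a stretch without P17 H3K27me3 peaks; the lower one, with 27 P12 H3K27me3 peaks, holds no EED peak and is covered in large part by P17 H3K27me3.

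H3K4me3 lay more often on P12 H3K27me3 peaks with EED over the whole list, but the shares were close among wide peaks. At P12 it lay on 92.6% of peaks with EED (90.6% to 94.2%) and on 61.2% of those without (60.4% to 62.1%), and at P17 on 94.7% and 64.5%. In the widest class the P12 shares were 99.8% and 98.4%, and at 2308 to 3315 bp 96.9% and 95.5%. In the class of 557 to 659 bp they were 68.8% (44.4% to 85.8%; 16 peaks) and 33.2% (30.7% to 35.8%). That was the only class where the P12 intervals with and without EED were apart. In the narrowest class the P12 shares were 33.3% (9 peaks) and 31.4%. The P12 share was higher with EED in 9 of the 10 classes, and lower at 1732 to 2307 bp, 85.9% against 87.0%. P17 H3K27me3 lay on 98.9% of the P12 peaks with EED and 95.1% of those without. Of the 9 carrying peaks without it, 8 lay in the HoxA stretch, and without that stretch the share was 99.9%. With the stretch kept, the P17 H3K27me3 share was higher with EED in 8 of the 10 width classes. The intervals of this share with and without EED overlapped in all 10. In the narrowest it was 100% (9 peaks) against 80.4%. At 2308 to 3315 bp it was lower with EED, 99.2% against 99.8%, as in the widest class, 98.2% against 99.7%.

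By P17 the sequence around carrying peaks lay in broad H3K27me3 domains. For each P12 H3K27me3 peak the P17 peak with which it shared the most bases was taken, so P12 peaks can share a P17 peak. Its median width was 12652 bp (11528 to 13359 bp) over the 787 P12 peaks with EED that had one, and 4933 bp (4874 to 4997 bp) over the 11630 without EED. In the P12 width class of 912 to 1090 bp, the P17 peak over a P12 peak had a median width of 8093 bp with EED (24 peaks) and 4533 bp without. The median gap to the next P12 H3K27me3 peak in that class was 99 and 1840 bp, so the surroundings were not matched.

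The overlap was spread over the autosomes, and on the X chromosome few EED peaks were called. Among 19 autosomes the share of EED peaks on P12 H3K27me3 ran from 61.4% on chromosome 16 to 86.1% on chromosome 13, with a median of 80.3%. The share of P12 H3K27me3 peaks with EED ran from 2.30% on chromosome 8 to 12.2% on chromosome 13, a range wider than the intervals of either chromosome (1.49% to 3.53% and 9.78% to 15.2%). On the X chromosome 5 EED peaks were called, 0 of them on P12 H3K27me3 (Wilson 95% interval up to 43.4%). Of its 120 P12 H3K27me3 peaks 0 carried EED, which allows a share of up to 2.5% when 3 counts are taken as the limit of a count of 0 (Wilson upper bound 3.10%).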

How the data were processed

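The members, lists and comparisons were chosen with earlier results of these data known. Of 7 samples, 5 had peak lists used here; the input samples were not analysed here. Reads were aligned to mm9 with Bowtie, SAMtools and HTSeq among the tools, per the submitters' processing notes, which give no roles or versions. The authors' peak names show MACS as the caller, and the file naming gives a false discovery level of 5; version and settings are not stated in the sources used. The deposited lists hold coordinates and no score, so width took the place of a stricter threshold. The authors deposited raw read counts per gene body for H3K27me3, with 13462873 reads at P12 and 26664736 at P17, which were scaled here to CPM.

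Overlap, distance (bases between peaks), gaps and chains were computed in Python 3.11.15 with pandas 2.3.3 and scipy 1.17.1 and checked on simulated peaks and against bedtools. Shares carry Wilson and medians binomial order-statistic 95% intervals. Coordinates are counted from 1. Regions were named by rule: the 5 highest in EED peaks, width, distance or chain size; the smallest overlaps, the 6th ranked peak and examples among Hoxa genes were added after their values were seen. No sequence is printed because no mm9 genome was used.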

Additional observations from a re-analysis of the deposited data

How the results depend on the processing

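P12 peaks with EED were wider in the 10 of 13 alternatives that recomputed widths, and more often had a neighbour within the window in the 12 that recomputed neighbours. Of 87 recomputed values 56 stayed within the interval of the reported value. Requiring the whole EED peak inside gave 73.0% of EED peaks on P12 H3K27me3, 5.59% of P12 peaks with EED, a median distance of 39932 bp, 38.4% within 10 kb and a carrying width of 3920 bp. Requiring 50% of the EED peak gave 26.0% within 10 kb. Merging EED peaks within 1 kb gave 61.8% on P12 H3K27me3, a distance of 131620 bp and 12.6% within 10 kb. With EED peaks of at least 300 bp, 97.1% lay on P12 H3K27me3, 4.63% of P12 peaks carried EED, the rest were 1241 bp away with 74.4% within 10 kb, and carrying peaks had a width of 4295 bp and a neighbour in 90.2%. With P12 peaks of at least 1 kb the values were 76.2% on P12 H3K27me3, 10.2% with EED, 127444 bp, widths of 3954 and 1761 bp, and neighbours for 75.6% and 44.6%. Joining P12 peaks across 1 kb gave widths of 6263 and 1389 bp and neighbours for 53.4% and 37.9%. A window of 50 kb gave 39.3% of outside EED peaks near the mark and neighbours for 91.0% and 80.7%; a window of 5 kb gave neighbours for 56.7% of peaks without EED. Leaving out the 5 chains with most EED, an alternative chosen after seeing the data like that without the HoxA stretch, gave 77.0% on P12 H3K27me3. The EED and peak lists have no depth or score, which limits what can be said of peaks without a call. No paired analysis was possible because each group had 1 list.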
